A study of Mus musculus with 15 samples.

Results

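CpG-rich promoters that stayed unmethylated in wild type blood progenitors were followed through 3 mutant genotypes. The unit was a window of 1 kb on an autosome with at least 3 CpGs read 10 or more times in all 15 libraries. A window was kept when it lay within 1 kb of a GENCODE vM1 transcript start site and its mean methylation level over the 4 wild type libraries was below 5%. This held for 11270 of 29251 windows, against 3367 promoter windows at 5% or more and 14614 windows outside promoters. The 11270 windows hold 95136 measured CpGs and lie at start sites of 8638 genes. The level of a window is the percentage of its reads that are methylated, and a difference between levels is given in points.

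The assay was reduced representation bisulfite sequencing, in which a restriction digest enriches CpG-rich DNA and bisulfite converts unmethylated cytosines. The 15 libraries come from marrow progenitors of C57BL/6 mice. Double mutant cells (3 libraries) carried Mx1-cre+, Dnmt3a-/- and Idh2 R140Q. The labels call them malignant haematopoietic stem and progenitor cells, and they were sorted as Lin- cKit+ Sca1- CD34- Cd16/32- cells. Idh2 R140Q cells were Mx1-cre- with floxed, undeleted Dnmt3a, and Dnmt3a knockout cells were Mx1-cre+ Dnmt3a-/-. Wild type cells, so named in the labels, carried Mx1-cre+ and floxed Dnmt3a. The titles of all knockout and wild type libraries carry GFP, which the labels do not explain, and no other title does. GFP in the title thus differs wherever Idh2 R140Q does, and the 2 cannot be told apart. Idh2 R140Q, Dnmt3a knockout and wild type cells were each sorted as megakaryocyte-erythroid progenitors (MEP), with the same markers as the double mutant cells, and as granulocyte-macrophage progenitors (GMP, CD34+ Cd16/32+), with 2 libraries each. The Mx1 promoter answers to interferon and is active in blood cells and in other tissues. The labels name biological replicates but not separate animals, so p-values measure the spread between these libraries, which may be technical. Malignancy and the double genotype cannot be told apart, since no double mutant library was labelled otherwise. The Dnmt3a deletion was not checked here.

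Most CpG-rich promoters lack methylation in normal tissues, where the enzymes Dnmt3a and Dnmt3b, which add new methylation, are kept off them and Tet enzymes remove what is added. Promoters of developmental regulators that are silent in blood are often held by Polycomb proteins and are known to gain methylation in tumours. Mutant Idh2 makes 2-hydroxyglutarate, a metabolite that inhibits Tet enzymes.

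Stretches of 6 of the windows are given to show what was read. The first 3 come from windows with a large excess in double mutant cells that have room outside exons, the next 2 from windows higher in Idh2 R140Q than in Dnmt3a knockout cells, and the last from a window low in every group. Each is 120 bases of NCBIM37 (mm9), 5′ to 3′ on the strand of its gene, with capitals at the CpGs measured in all libraries. Tmem132c lies at chr5:127723031-127723150 (plus strand, intron). Pclo lies at chr5:14514777-14514896 (plus strand, upstream of the start site) and Kif21a at chr15:90879658-90879777 (minus strand, intron). Asb4 lies at chr6:5333714-5333833 (plus strand, intron) and Gm14290 at chr2:166927673-166927792 (minus strand, upstream of the start site). Ccna2 lies at chr3:36470320-36470439 (minus strand, intron).
Tmem132c: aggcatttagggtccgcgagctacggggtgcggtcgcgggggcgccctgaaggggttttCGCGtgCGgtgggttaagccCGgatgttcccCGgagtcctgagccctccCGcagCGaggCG
Pclo: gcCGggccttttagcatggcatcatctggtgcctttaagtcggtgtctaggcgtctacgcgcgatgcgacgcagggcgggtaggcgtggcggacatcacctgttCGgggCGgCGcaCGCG
Kif21a: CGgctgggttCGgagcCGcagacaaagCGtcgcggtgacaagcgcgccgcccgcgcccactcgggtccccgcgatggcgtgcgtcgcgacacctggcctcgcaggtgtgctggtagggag
Asb4: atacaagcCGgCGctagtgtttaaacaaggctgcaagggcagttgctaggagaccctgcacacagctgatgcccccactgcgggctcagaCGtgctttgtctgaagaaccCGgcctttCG
Gm14290: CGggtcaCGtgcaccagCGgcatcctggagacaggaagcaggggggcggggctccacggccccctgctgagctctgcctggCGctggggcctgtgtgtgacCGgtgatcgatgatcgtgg
Ccna2: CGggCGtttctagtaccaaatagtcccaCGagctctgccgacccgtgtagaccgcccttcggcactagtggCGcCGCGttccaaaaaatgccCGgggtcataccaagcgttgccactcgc
The capital CpGs of the Pclo stretch averaged 68.4% in double mutant cells, 1.13% in Idh2 R140Q MEP, 1.32% in Dnmt3a knockout MEP and 2.07% in wild type MEP. Those of Gm14290 averaged 1.03% in double mutant cells, 27.7% in Idh2 R140Q MEP, 6.93% in Dnmt3a knockout MEP and 0.825% in wild type MEP. The 7 capital CpGs of Ccna2, a cyclin of S phase, were at 0.280% in double mutant cells and at 0 in wild type MEP.

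Double mutant cells carried methylation at a minority of these promoters, while the typical promoter stayed near 0. A mean level of 10% or more was reached by 1287 windows (11.4%) in double mutant cells, 116 in Idh2 R140Q MEP, 144 in Idh2 R140Q GMP, 7 in Dnmt3a knockout MEP, 11 in Dnmt3a knockout GMP and 0 in either wild type group. Since the wild type levels chose the windows, neither wild type group mean could reach 10%, and the 0 was fixed by that choice. Every difference from wild type is a description with no test. By library, the windows at 10% or more numbered 1213, 1421 and 1235 in double mutant cells. They numbered 151 and 149 in Idh2 R140Q MEP, 229 and 195 in Idh2 R140Q GMP, 40 and 44 in Dnmt3a knockout MEP, and 11 and 39 in Dnmt3a knockout GMP. The wild type libraries had 1 to 6. All 3 double mutant libraries lay far above every other library, and the Idh2 R140Q libraries lay above all Dnmt3a knockout libraries.

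**Figure D1:**
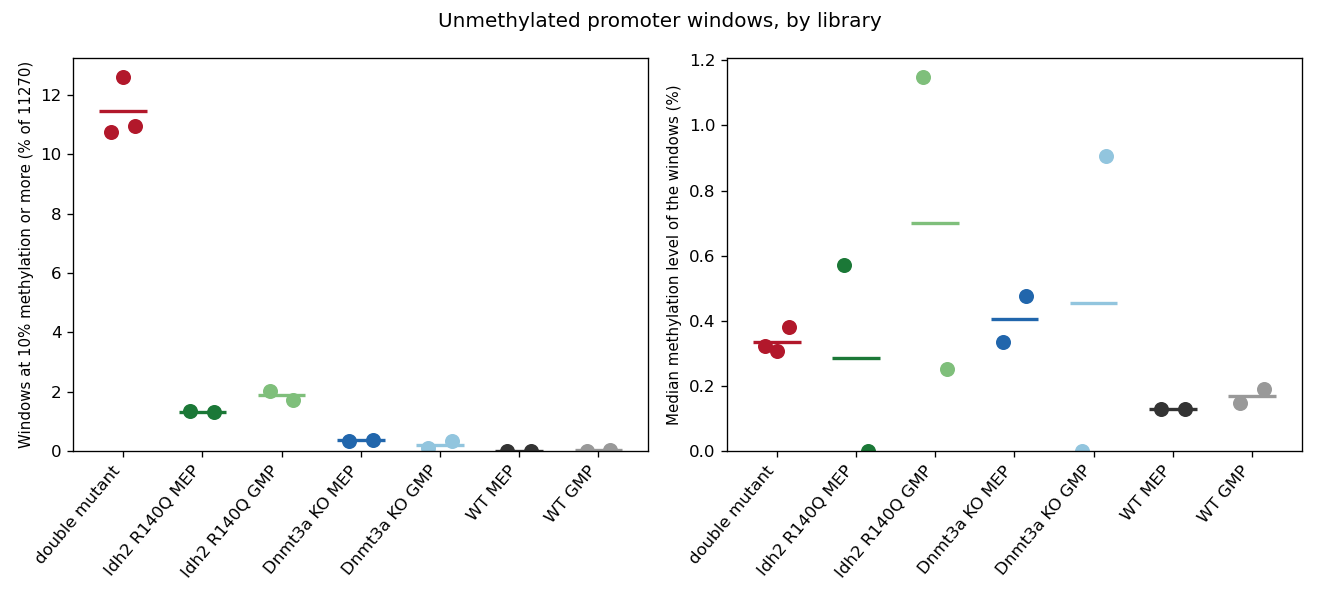
Left, windows at 10% methylation or more (% of 11270) and right, median level of the 11270 windows (%), with 1 point per library and a line at the mean of each group. The double mutant libraries stand at 10.8% to 12.6% of windows on the left, while their medians on the right, 0.307% to 0.380%, lie within the range of the single mutants.

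The median over the windows was 0.403% in double mutant cells, 0.407% in Idh2 R140Q MEP, 0.899% in Idh2 R140Q GMP, 0.602% in Dnmt3a knockout MEP, 0.552% in Dnmt3a knockout GMP, 0.229% in wild type MEP and 0.284% in wild type GMP. The mean over windows was 3.70% ± 0.387 (SD, n = 3 libraries) in double mutant cells and 1.13% ± 0.256 (SD, n = 2) in Idh2 R140Q MEP. It was 1.04% ± 0.0971 in Dnmt3a knockout MEP and 0.683% ± 0.0302 in wild type MEP (SD, n = 2 each). The double mutant mean therefore stood out through its upper tail: 669 windows were at 20% or more and 57 at 50% or more, against 17 and 0 in Idh2 R140Q MEP and 0 and 0 in Dnmt3a knockout MEP. Fully methylated alleles in some cells and partial methylation in all cells cannot be told apart in bulk libraries.

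Library quality moved with some of these values. The double mutant and wild type libraries held 28001420 to 35204906 reads of CpG cytosines and the single mutant libraries 19306705 to 26086791. Reads on the X chromosome came to 1.17% to 1.47% of autosomal reads in the 11 mutant libraries and 2.21% to 2.25% in the 4 wild type libraries, which chose the windows. The sex of the mice was not used here, and all windows are autosomal. A window held a median of 206 to 437 reads per library. Methylated reads on mitochondrial DNA, a value that includes any unconverted cytosine, made up 0.280% to 3.27%. Library 1 of Idh2 R140Q GMP and library 2 of Dnmt3a knockout GMP had the highest window medians (1.15% and 0.907%) and mitochondrial shares of 2.43% and 2.77%. The wild type GMP libraries had the largest mitochondrial shares (3.12% and 3.27%) with medians of 0.149% and 0.190%. The part of depth, conversion and the X chromosome share in the results was not tested, and calls without the libraries that stand apart are given below.

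Many of the methylated windows were shared between the double mutant libraries. Of the windows at 10% or more in any double mutant library (1636), 983 were so in all 3. Chosen on libraries 1 and 2, 1098 windows had a median of 20.7% in library 3, which was not used, and 983 of them (89.5%) were at 10% or more there. The same held for library 1 (983 of 1102, median 21.6%) and library 2 (983 of 1016, median 27.4%). Library 2 was the highest of the 3 in number and in level.

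The 1287 windows at 10% or more in double mutant cells had a median level of 20.8% there, 2.68% in Idh2 R140Q MEP, 2.27% in Dnmt3a knockout MEP and 2.17% in wild type MEP. In 931 of them (72.3%) both single mutant MEP groups were below 5%. The methylation of double mutant cells spread over the measured CpGs of a window. In the 669 windows at 20% or more, a median of 90% of CpGs were at 10% or more. In 306 of those windows every measured CpG was. Of 2310 genes with several unmethylated promoter windows, 375 had at least 1 at 10% or more in double mutant cells, and in 171 all of them were.

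Double mutant cells were compared with Dnmt3a knockout MEP to ask what differs when Idh2 R140Q is present on the knockout. Higher methylation was called in 1096 of 11270 windows (9.72%), beside 11.9% of all 29251 windows, calling a window when it differed by 10 points or more with an adjusted p under 0.05. Lower methylation was called in 2 windows, beside 1.84% of all windows. Calls are from a quasi-binomial model with Benjamini-Hochberg adjustment over all windows. The share of higher calls was thus no greater than over all windows, and few falls were possible with 7 windows at 10% or more in the knockout. The median difference of the 1096 windows was 20.6 points, and in 1091 of them every double mutant library exceeded both knockout libraries. Windows that pass the call mostly have their libraries apart, so this count adds no separate support. Over all 11270 windows the median difference was 0.

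Against Idh2 R140Q MEP, higher methylation was called in 1019 windows (9.04%), beside 11.1% of all windows, and lower methylation in 21, beside 3.65%. The median difference of the 1019 was 21.0 points, with all libraries apart in 1015, which the call again makes likely. This comparison shares the double mutant libraries with the last, so their calls are not independent. Genotype, malignancy and the total reads of a library differ together in both comparisons. Mx1-cre status also differs from Idh2 R140Q cells, and GFP in the title from knockout cells. Median reads per window overlapped, at 280, 321 and 292 in double mutant cells, 437 and 268 in Dnmt3a knockout MEP, and 237 and 360 in Idh2 R140Q MEP.

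**Figure D2:**
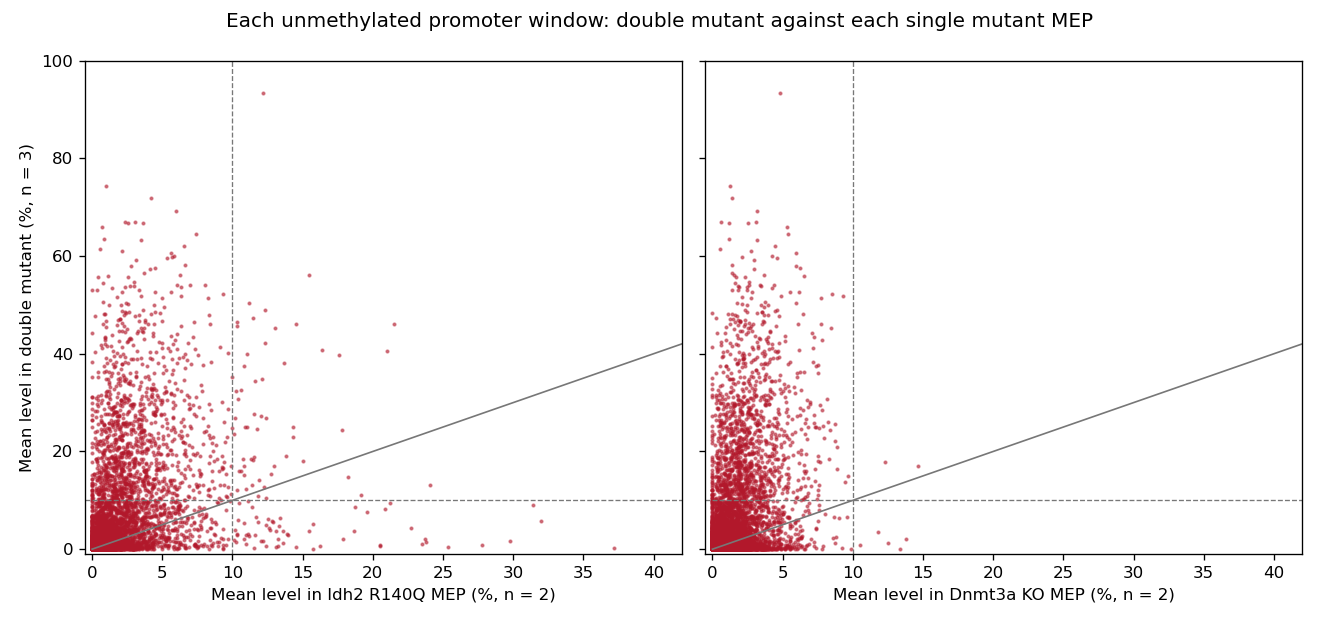
Each point is 1 of the 11270 windows, with its mean level in double mutant cells (%, n = 3) on the vertical axis and in Idh2 R140Q MEP (left) or Dnmt3a knockout MEP (right) on the horizontal axis (%, n = 2). The solid line marks equal levels and the dashed lines 10%; the 1287 windows above the horizontal dashed line mostly lie left of the vertical line, and windows at the lower right occur with Idh2 R140Q.

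Among the largest differences was the promoter of Itga2b, which encodes integrin alpha IIb (CD41) of megakaryocytes and platelets. Its window holds the start site (chr11:102317001-102318000, 5 CpGs). The levels were 78.0%, 80.3% and 64.5% in double mutant cells, 0.741% and 1.29% in Idh2 R140Q MEP, 2.45% and 0% in Dnmt3a knockout MEP, and 1.12% and 4.50% in wild type MEP. The double mutant libraries lay far above all others, by 73.0 points over the knockout (adjusted p = 1.06e-06) and 73.3 points over Idh2 R140Q (adjusted p = 1.32e-06). The largest difference of all was at 3 CpGs upstream of Sept10, which encodes a septin of the cytoskeleton, in a window that is also near Ankrd57 (chr10:58685001-58686000). Its levels were 89.6%, 94.7% and 95.8% in double mutant cells, 12.0% and 12.4% in Idh2 R140Q MEP, 3.80% and 5.83% in Dnmt3a knockout MEP, and 8.06% and 2.98% in wild type MEP. The double mutant excess was 88.6 points over the knockout (adjusted p = 1.05e-06) and 81.2 points over Idh2 R140Q (adjusted p = 1.97e-06).

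Windows of Pclo, Dlgap1 and Dab1, which have roles in neurons, were among the 20 highest in double mutant cells. Pclo encodes piccolo of the presynaptic active zone, and its window (chr5:14514001-14515000, 7 CpGs) was at 48.2%, 77.8% and 64.3% in double mutant cells, 1.20% and 0.498% in Idh2 R140Q MEP, and 1.94% and 0.358% in Dnmt3a knockout MEP. The double mutant libraries differed widely from each other there but did not overlap any other library. Dlgap1, a postsynaptic scaffold gene, was at 51.5%, 72.6% and 76.0% in double mutant cells, 4.31% and 0.877% in Idh2 R140Q MEP, and 1.76% and 0.529% in Dnmt3a knockout MEP. Dab1, an adaptor of reelin signalling, was at 58.7%, 66.1% and 72.7% in double mutant cells, 0.660% and 0.719% in Idh2 R140Q MEP, and 3.79% and 6.82% in Dnmt3a knockout MEP. All 3 of these windows were called in both comparisons, with differences over the knockout of 62.3 points at Pclo, 65.5 at Dlgap1 and 60.6 at Dab1.

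Other windows of this rank belong to genes of many tissues. Tmem132c encodes a transmembrane protein, and its downstream window (chr5:127723001-127724000, 10 CpGs) was at 72.0%, 66.4% and 61.7% in double mutant cells, 3.12% and 4.14% in Idh2 R140Q MEP, and 4.01% and 1.13% in Dnmt3a knockout MEP. The adjacent window over its start site was at 59.5%, 72.3% and 54.1% in double mutant cells. Adamts9, which encodes a secreted metalloprotease, likewise had 2 adjacent windows in the top 20, at 63.8%, 73.4% and 63.7% and at 63.6%, 62.2% and 51.8% in double mutant cells. Both Adamts9 windows stayed at 4.93% or less in every single mutant library. Egfem1 had the most CpGs of the top 20 (25), with 62.1%, 62.3% and 69.0% in double mutant cells, 5.15% and 9.65% in Idh2 R140Q MEP, and 4.79% and 5.90% in Dnmt3a knockout MEP. Lrat, whose enzyme makes retinyl esters, was at 63.0%, 60.7% and 58.1% in double mutant cells, 4.88% and 6.32% in Idh2 R140Q MEP, and 8.89% and 3.06% in Dnmt3a knockout MEP. The double mutant libraries lay close together at Lrat (SD of 2.47 points) and furthest apart, among the top 20, at Sox9 and A830092H15Rik (21.0 and 17.6 points).

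**Figure D3:**
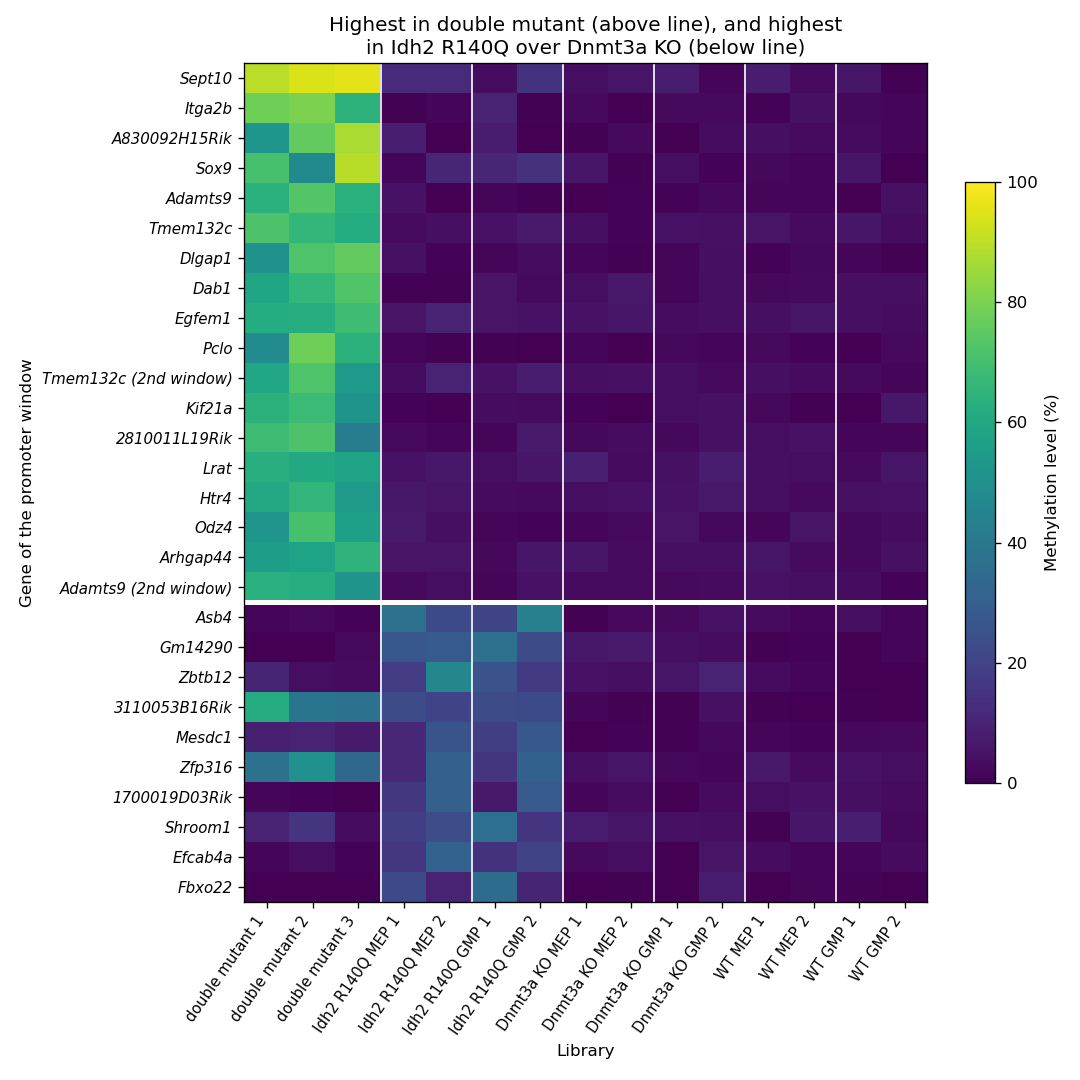
Methylation level (%, colour from 0 to 100) of 28 windows (rows, by gene) in each of the 15 libraries (columns, grouped by genotype and cell type). The 18 windows above the white line are from the 20 highest means in double mutant cells and are dark elsewhere, and the 10 below it have the largest differences of Idh2 R140Q over Dnmt3a knockout, where only 3110053B16Rik and Zfp316 exceed 30% in all double mutant libraries.

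A small set of promoters showed the opposite order and was methylated in Idh2 R140Q cells but not in double mutant cells. In the 21 windows called lower than in Idh2 R140Q MEP, the median level was 0.985% in double mutant cells, 18.7% in Idh2 R140Q MEP, 16.5% in Idh2 R140Q GMP and 2.68% in Dnmt3a knockout MEP. Dusp3, which encodes a dual-specificity phosphatase, was at 0%, 0.282% and 0.602% in double mutant cells, 29.3% and 45.0% in Idh2 R140Q MEP, 8.28% and 8.03% in Idh2 R140Q GMP, and 6.28% and 4.81% in Dnmt3a knockout MEP. Asb4, whose protein is an adaptor of a ubiquitin ligase, was at 1.60%, 2.71% and 0.990% in double mutant cells, 37.1% and 22.5% in Idh2 R140Q MEP, 20.6% and 43.6% in Idh2 R140Q GMP, and 0.694% and 2.50% in Dnmt3a knockout MEP. Gm14290, a gene model, was at 0%, 0% and 2.41% in double mutant cells, 27.3% and 28.3% in Idh2 R140Q MEP, 36.8% and 23.4% in Idh2 R140Q GMP, and 6.45% and 7.08% in Dnmt3a knockout MEP. In each of the 3 the double mutant libraries lay below every Idh2 R140Q library. The differences from Idh2 R140Q MEP were -36.9 points at Dusp3 (adjusted p = 5.15e-06), -28.0 at Asb4 (adjusted p = 0.000277) and -27.0 at Gm14290 (adjusted p = 0.000122). Fbxo22, an F-box gene of the ubiquitin pathway, was at 0% in all double mutant libraries and at 21.9% and 9.58% in Idh2 R140Q MEP. Its call (-15.7 points, adjusted p = 0.0264) was lost without any 1 of the 3 double mutant libraries or the first Idh2 R140Q MEP library, with adjusted p of 0.0738 to 0.115. The calls of Zbtb12 and D230017M19Rik were lost without the second Idh2 R140Q MEP library (adjusted p = 0.139 and 0.0645) and that of Tmem82 without the first (adjusted p = 0.0661).

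The 2 windows lower in double mutant than in knockout cells rest on low counts. Dolpp1, which encodes a phosphatase of dolichol recycling, was at 0% in all 3 double mutant libraries and at 18.4% and 8.33% in Dnmt3a knockout MEP (3 CpGs, 36 to 114 reads per library). Ralgps2, an exchange factor gene of Ral proteins, was at 1.04%, 3.33% and 2.04% in double mutant cells and 14.3% and 13.3% in Dnmt3a knockout MEP. The Dolpp1 difference of -13.4 points shrank to -8.33 without the first knockout library. The number of windows called lower was 7 without the first and 15 without the second knockout MEP library.

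Idh2 R140Q cells were compared with Dnmt3a knockout cells over GMP and MEP with equal weight. Higher methylation was called in 33 windows (0.293%), beside 3.53% of all windows, and lower methylation in 1, beside 0.219%. The MEP and GMP libraries of a genotype share title prefixes, and those of Idh2 R140Q with the same prefix deviated together (r = 0.376 across these windows, which are not independent replicates), while those of the knockout did not (-0.0175). With each prefix summed to 1 unit, an alternative chosen after seeing the data, 26 windows were called higher and 1 lower. With the replicate number as a block 18 were called higher and 0 lower, without Zbtb12, Shroom1, Fbxo22 and 1700023E05Rik. The median difference of the 33 was 14.3 points. They had a median level of 17.9% in Idh2 R140Q MEP, 16.3% in Idh2 R140Q GMP, 2.43% in Dnmt3a knockout MEP and 2.69% in Dnmt3a knockout GMP. Double mutant cells, which this comparison did not use, were at 10% or more in 7 of the 33 (21.2%). They were below 5% in 18 (54.5%). Of all unmethylated promoter windows, 11.4% were at 10% or more and 17.2% at 5% or more in double mutant cells. The 33 had a median wild type level of 2.80%. Of windows at 2% to 5% in wild type, 56.2% were at 10% or more in double mutant cells. Asb4 had the largest difference (28.2 points, adjusted p = 0.000415) and Gm14290 the next (23.7 points, adjusted p = 0.000398).

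A few windows were methylated in both Idh2 R140Q and double mutant cells. 3110053B16Rik, named only by its clone, was at 61.7%, 38.9% and 37.8% in double mutant cells, 23.0% and 20.1% in Idh2 R140Q MEP, 22.8% and 22.5% in Idh2 R140Q GMP, and 1.86% and 0.575% in Dnmt3a knockout MEP. It exceeded the knockout by 20.2 points in Idh2 R140Q cells (adjusted p = 0.00133). Zfp316, a zinc finger gene, was at 37.4%, 50.6% and 33.5% in double mutant cells, 11.4% and 30.6% in Idh2 R140Q MEP, 15.4% and 30.9% in Idh2 R140Q GMP, and 3.64% and 5.63% in Dnmt3a knockout MEP. In both, the double mutant libraries lay above all Idh2 R140Q libraries, and those above all knockout libraries. By contrast 1700019D03Rik was at 1.60%, 1.05% and 0.303% in double mutant cells, 16.2% and 30.8% in Idh2 R140Q MEP, and 1.52% and 3.40% in Dnmt3a knockout MEP. The sole window lower in Idh2 R140Q than in knockout cells, 1700023E05Rik, was at 0.498% and 4.18% in Idh2 R140Q MEP, 0.730% and 6.08% in Idh2 R140Q GMP, 6.25% and 17.3% in Dnmt3a knockout MEP, and 23.9% and 9.91% in Dnmt3a knockout GMP. That difference of -11.5 points (adjusted p = 0.0445) lost its call without most single libraries.

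Of the 116 windows at 10% or more in Idh2 R140Q MEP, 55 (47.4%) were also at 10% or more in double mutant cells, where they made up 4.27% of 1287. A further 42 of the 116 (36.2%) were below 5% in double mutant cells. Of all unmethylated promoter windows, 11.4% were at 10% or more and 17.2% at 5% or more in double mutant cells. The 116 had a median wild type level of 3.64%, and windows at 2% to 5% in wild type had a share of 56.2% at 10% or more. Windows at 10% or more were shared by Idh2 R140Q MEP and GMP in 71 cases, 61.2% of 116 and 49.3% of 144. The count of 34 calls for Idh2 R140Q against knockout was 29 without the first Idh2 R140Q GMP library and 30 without the second knockout GMP library, the 2 that stand apart. It fell to 19 without the first knockout GMP library and to 22 without the first knockout MEP library.

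Megakaryocyte-erythroid and granulocyte-macrophage progenitors were not told apart at these promoters within either single mutant. Between MEP and GMP, 0 windows were called in Dnmt3a knockout cells, beside 0.0376% of all windows higher and 0% lower. In Idh2 R140Q cells 0 windows were called, beside 0.106% higher and 0.0786% lower. The quasi-binomial test had 1008 of 11270 windows at an unadjusted p under 0.05 in knockout cells, beside 2141 of all 29251. In Idh2 R140Q cells it had 1477, beside 3153 of all windows, and limma called 0 in each genotype. Leaving out 1 library at a time gave 0 to 9 calls in Idh2 R140Q cells. The difference between Idh2 R140Q and knockout cells in MEP against that in GMP was called in 0 windows, beside 0% of all windows. It had 1112 windows at an unadjusted p under 0.05 in that test, beside 2643 of all windows, and limma called 0. With 2 libraries per group, this does not show that the cell types are alike.

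Developmental transcription factor genes were the largest group of methylated promoters among the gene lists used. All 13 lists were chosen with earlier results of these data known, so the order of the lists is a description and no independent finding. Of 129 windows at 70 such genes, 78 (60.5%) were at 10% or more in double mutant cells, 3 in Idh2 R140Q MEP and 0 in Dnmt3a knockout MEP, beside 11.4% of all unmethylated promoter windows in double mutant cells. Their median level was 14.4% in double mutant cells, 2.68% in Idh2 R140Q MEP, 1.87% in Dnmt3a knockout MEP and 1.90% in wild type MEP. Against the knockout 69 were called higher and 0 lower, and against Idh2 R140Q MEP 65 and 0. The shares called higher in these comparisons were 11.9% and 11.1% of all windows, and 9.72% and 9.04% of the unmethylated promoter windows. Sox9, a regulator of cartilage and testis, was at 70.9%, 47.4% and 89.2% in double mutant cells, 1.34% and 10.6% in Idh2 R140Q MEP, and 5.88% and 0.498% in Dnmt3a knockout MEP. Irx2, an Iroquois homeobox gene, was at 54.9%, 68.1% and 49.3% in double mutant cells, 3.60% and 4.63% in Idh2 R140Q MEP, and 2.92% and 3.01% in Dnmt3a knockout MEP. Both were called in both comparisons with no overlap between libraries.

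The Hox cluster genes, which set position along the body axis and include regulators of blood stem cells, had 20 of 37 windows at 10% or more in double mutant cells, 1 in Idh2 R140Q MEP and 0 in Dnmt3a knockout MEP. Against the knockout 19 were called higher, beside 11.9% of all windows, and against Idh2 R140Q MEP 16, beside 11.1%. The 20 of 37 (54.1%) stand beside 11.4% of all unmethylated promoter windows. Hoxd11 was at 40.2%, 56.3% and 43.1% in double mutant cells, 9.95% and 10.7% in Idh2 R140Q MEP, and 1.23% and 2.71% in Dnmt3a knockout MEP. Hoxa9, a stem cell and leukaemia gene, was lower, at 12.8%, 25.1% and 13.8% in double mutant cells, 0% and 1.90% in Idh2 R140Q MEP, and 2.07% and 2.05% in Dnmt3a knockout MEP. The Hoxa9 window was called higher in both comparisons, by 15.1 points over the knockout (adjusted p = 0.00151) and 16.2 over Idh2 R140Q (adjusted p = 0.00116).

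Neuronal signalling and adhesion genes had the highest share of any list, 36 of 50 windows (72.0%) at 10% or more in double mutant cells and 0 in either single mutant MEP group. This list, too, was chosen with earlier results of these data known. Their median was 16.5% in double mutant cells, 1.77% in Idh2 R140Q MEP, 1.90% in Dnmt3a knockout MEP and 1.67% in wild type MEP. Against the knockout 33 were called higher, beside 11.9% of all windows, and against Idh2 R140Q MEP 30, beside 11.1%. Cdh4, which encodes R-cadherin, was at 47.6%, 59.4% and 59.9% over 22 CpGs in double mutant cells, 2.74% and 2.31% in Idh2 R140Q MEP, and 1.55% and 1.83% in Dnmt3a knockout MEP. Wnt antagonists had 5 of 18 windows (27.8%) at 10% or more in double mutant cells, beside 11.4% of all unmethylated promoter windows. All 5 were called higher than in the knockout, beside 11.9% of all windows, and 3 were called higher than in Idh2 R140Q MEP, beside 11.1%. Sfrp1, a secreted Wnt antagonist, was at 62.5%, 57.7% and 53.9% downstream of its start site in double mutant cells, 0.694% and 4.86% in Idh2 R140Q MEP, and 9.13% and 2.70% in Dnmt3a knockout MEP.

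**Figure D4:**
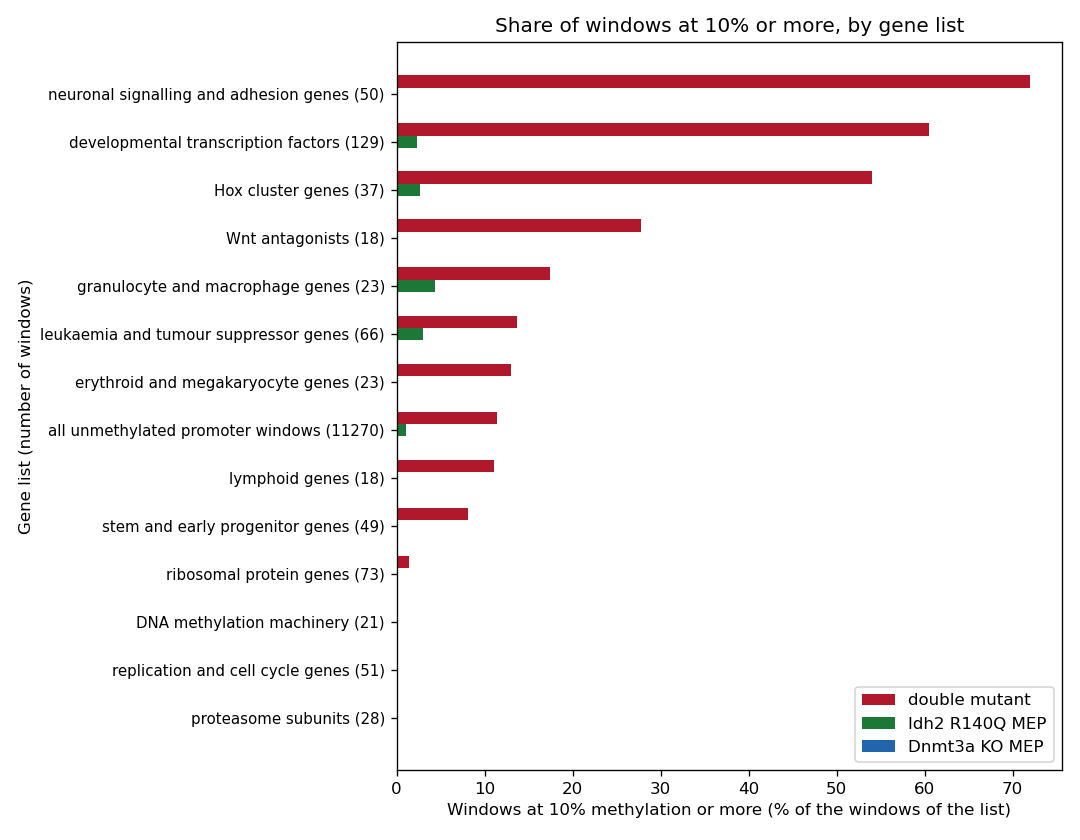
Windows at 10% methylation or more (% of the windows of each list, horizontal) for 13 gene lists and all windows (vertical, number of windows in brackets), in double mutant cells, Idh2 R140Q MEP and Dnmt3a knockout MEP. Bars are group means with no error, and the lists were chosen with earlier results of these data known. Neuronal, developmental and Hox lists stand at 72.0%, 60.5% and 54.1% in double mutant cells, against 11.4% of all unmethylated promoter windows.

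Blood lineage genes lay near the share of all promoters. Erythroid and megakaryocyte genes had 3 of 23 windows at 10% or more in double mutant cells, granulocyte and macrophage genes 4 of 23, lymphoid genes 2 of 18, and stem and early progenitor genes 4 of 49, beside 11.4% of all unmethylated promoter windows. Called higher than in the knockout were 3, 2, 2 and 1 windows, beside 11.9% of all windows. Against Idh2 R140Q MEP it was 3, 1, 2 and 2, beside 11.1%. Of the 4 granulocyte and macrophage windows, 1 was at 0%, 5.95% and 30.3% in the double mutant libraries. The stem list shares Hoxa9 with the Hox list. Beside Itga2b, the erythroid list held 2 windows of Ank1, which encodes the ankyrin of the red cell membrane. The higher of them was at 52.6%, 49.3% and 54.8% in double mutant cells, 13.3% and 5.33% in Idh2 R140Q MEP, and 11.5% and 5.56% in Dnmt3a knockout MEP. Bcl11b, a transcription factor of T cells, was at 33.7%, 46.6% and 43.4% in double mutant cells, 5.93% and 4.08% in Idh2 R140Q MEP, and 10.7% and 3.57% in Dnmt3a knockout MEP. Irf8, which directs monocytes and dendritic cells, did not separate double mutant from Idh2 R140Q cells, with 16.2%, 15.4% and 12.6% in double mutant cells, 15.3% and 21.2% in Idh2 R140Q MEP, and 4.0% and 6.85% in Dnmt3a knockout MEP. Leukaemia and tumour suppressor genes had 9 of 66 windows at 10% or more, among them Id4, an inhibitor of helix-loop-helix factors. Id4 was at 29.0%, 37.7% and 37.7% in double mutant cells, 1.25% and 0.998% in Idh2 R140Q MEP, and 1.53% and 1.00% in Dnmt3a knockout MEP.

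Housekeeping promoters mostly stayed unmethylated in double mutant cells, as did most windows of equally low wild type level. Wild type levels were below 1% in 28 of 28 proteasome, 46 of 51 replication, 19 of 21 DNA methylation and 66 of 73 ribosomal windows. Of all windows below 1% in wild type, 2.47% were at 10% or more in double mutant cells, so the low counts of these lists lie near that share. Of 28 windows of proteasome subunits, 51 of replication and cell cycle genes and 21 of the DNA methylation machinery, 0 reached 10% in double mutant cells. The highest means were 1.70% at Psmd2, 4.89% at Cdk6 and 1.38% at Zbtb38. Of 73 windows of ribosomal protein genes, 1 reached 10%: a window whose midpoint lies upstream of Rpl26, at 33.5%, 35.8% and 29.4% in double mutant cells, 4.09% and 3.75% in Idh2 R140Q MEP, and 3.61% and 2.06% in Dnmt3a knockout MEP. The median of the ribosomal protein list was 0.234% in double mutant cells, 0.257% in Idh2 R140Q MEP, 0.597% in Dnmt3a knockout MEP and 0.154% in wild type MEP. In every one of the 13 lists, 0 windows were called between Idh2 R140Q and knockout cells. This stands beside 34 of all 11270 windows (0.302%), so few calls could fall in lists of this size.

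Among windows all chosen below 5%, the small remaining wild type level went with the double mutant level. The share at 10% or more in double mutant cells was 0.416% of the 4571 windows with a wild type mean below 0.2%, 1.56% at 0.2% to 0.5%, 10.3% at 0.5% to 1%, 32.9% at 1% to 2% and 56.2% of 1272 windows at 2% to 5%. In Idh2 R140Q MEP the same shares were 0.0438% in the lowest and 7.70% in the highest bin. The wild type level is the measure the windows were chosen on, so this order is a description. Levels were similar on both sides of the threshold. The 116 windows at 4.5% to 5% had a double mutant median of 15.6%, and 96 windows just outside, at 5% to 5.5%, had 14.6%. Developmental transcription factor windows had wild type levels of 1% to 5% in 100 of 129 cases, and 69 of those 100 were at 10% or more in double mutant cells, beside 45.6% of all windows in that range. For neuronal genes it was 32 of 37. Below 1% in wild type, 9 of 29 developmental windows (31.0%) were at 10% or more, beside 2.47% of all such windows.

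**Figure D5:**
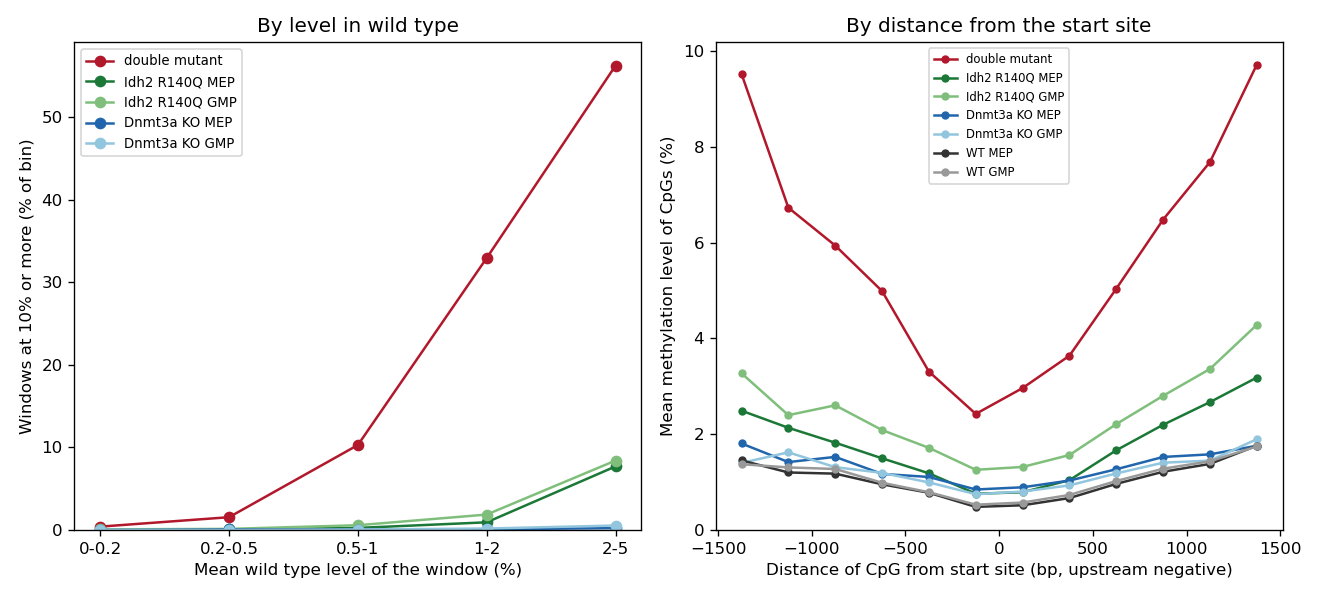
Left, share of windows at 10% or more (%) by mean wild type level of the window (%), for the 5 mutant groups. Right, mean methylation level of CpGs (%) in steps of 250 bp from the nearest start site, for all 7 groups. The double mutant line climbs to 56.2% on the left, and on the right it is lowest just upstream of the start site (2.42%) and highest at the outer edges (9.52% and 9.71%).

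Methylation in double mutant cells was lowest at the start site and higher away from it. The mean CpG level within 250 bp upstream of the start was 2.42% in double mutant cells, 0.758% in Idh2 R140Q MEP, 0.847% in Dnmt3a knockout MEP and 0.484% in wild type MEP. At 1250 to 1500 bp downstream it was 9.71% in double mutant cells, 3.18% in Idh2 R140Q MEP, 1.76% in Dnmt3a knockout MEP and 1.76% in wild type MEP. All 3 double mutant libraries had this shape, with 2.24% to 2.71% near the start and 9.02% to 10.9% at that edge. The neighbourhood also differed: windows next to a measured window at 2% to 5% in wild type were at 10% or more in double mutant cells in 43.1% of 517 cases, against 6.10% of 4331 with adjacent windows below 2% and 12.6% of 127 next to a window at 50% or more.

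By number of CpGs per window, the shares at 10% or more in double mutant cells were 10.5% to 12.2% across 5 bins. By CpGs observed over those expected from base composition, they were 13.7%, 14.1%, 11.2%, 10.7% and 7.48% from the lowest to the highest bin. In Idh2 R140Q MEP the share at 10% or more was 2.15% of windows in the bin of fewest CpGs and 0.570% in that of most. Windows at 10% or more in Idh2 R140Q MEP had a median of 46 CpGs per window in the genome, against 60 for those of double mutant cells and 61 for all unmethylated promoter windows. Both strands were searched for short motifs as letters alone. CCGGAAG, the core bound by ETS factors, was in 13.7% of windows at 10% or more in double mutant cells, 27.5% of those below 2%, 24.2% of all unmethylated promoter windows and 20.1% of all windows. CAGCTG, an E-box of tissue-specific factors, was in 47.1% of windows at 10% or more, 38.6% of those below 2%, 40.0% of all unmethylated promoter windows and 43.5% of all windows. Another E-box, CACGTG, went the other way, in 15.3% of windows at 10% or more and 20.7% of those below 2%. So did the CCAAT box (59.9% and 64.2%). The GC box GGGCGG was in 82.6% and 84.8% of windows at 10% or more and below 2%, so it did not separate them. A match is not a bound site.

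How far the threshold itself shapes these counts was read from windows chosen on the 2 wild type GMP libraries alone. Of 11261 such windows, 1283 were at 10% or more in double mutant cells, 125 in Idh2 R140Q MEP, 15 in Dnmt3a knockout MEP and 17 in wild type MEP, which took no part in that choice. At 10% the Dnmt3a knockout MEP count thus did not exceed the wild type MEP count under this choice, while the double mutant and Idh2 R140Q counts did. At 5% or more it did, with 253 windows in Dnmt3a knockout MEP and 187 in wild type MEP. The medians were 0.602% and 0.229%.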

How the data were processed

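Per the submitters' processing notes, the authors aligned reads with BSMAP 2.74 to mm9. The deposited files list CpG cytosines with counts of methylated and of all reads. The deposited fraction is methylated over all reads of the same row, and it was checked but not used. Whether duplicate reads were removed, and the conversion rate, is not given in the sources used here. Duplicates cannot be told from separate molecules, so counting error understates the error of a level.

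Strands were added per CpG, and windows of 1 kb, start sites (90315 transcripts, without 2 gene models over 3000000 bp) and bases came from NCBIM37 and GENCODE vM1. Windows were fitted with a quasi-binomial logistic model with 7 group means and 8 residual degrees of freedom. Dispersions were squeezed as in limma (prior degrees of freedom 5.33) and kept at 1 or more. Contrasts between mutants were tested by F test, with Benjamini-Hochberg adjustment over all 29251 windows. Every adjusted p in the text comes from that model, and limma on log2 ratios of methylated to unmethylated reads, each plus 1, was an alternative. The tools were R 4.3.3 with limma 3.58.1 and Python 3.11.15 with scipy 1.17.1, numpy 2.4.6 and pandas 2.3.3, and the model was tested on simulated data.

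Named windows were the 10 largest rises and falls per comparison among called windows whose libraries did not overlap, at most 1 per 10 kb, called windows of list genes, and the 20 highest in double mutant cells. Some windows under this rule are not reported here. Irf8, Psmd2, Cdk6 and Zbtb38 were named after their values were seen. A window took the nearest start site, protein-coding first. The windows and gene lists were chosen with earlier results of these data known.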

Additional observations from a re-analysis of the deposited data

How the results depend on the processing

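In the comparisons with calls, higher calls outnumbered lower ones under every alternative run, and no named window changed sign. With 20 reads per CpG, 6754 windows were left, of which 688 were at 10% or more in double mutant cells, and 559 (8.28%), 548 (8.11%) and 19 were called for double mutant against Dnmt3a knockout MEP, double mutant against Idh2 R140Q MEP and Idh2 R140Q against knockout. That alternative holds fewer windows by construction, as does a wild type mean below 2%, which gave 572 at 10% or more and 501, 482 and 12 calls. At 5 points in place of 10, Idh2 R140Q against knockout gave 84 calls and MEP against GMP in Idh2 R140Q cells gave 1. Leaving out 1 library at a time gave 903 to 1132, 862 to 1067 and 19 to 40 calls for the same 3 comparisons, 0 to 9 for MEP against GMP in Idh2 R140Q cells (9, all lower in MEP, without the second GMP library, and 1 higher in MEP without the first MEP library) and 0 for the knockout and the interaction. It gave 1229 to 1333 windows at 10% or more in double mutant cells. limma made 1025, 927 and 28 calls. Same-numbered libraries did not deviate together between genotypes (correlations of -0.0483 to 0.0151), and the labels do not say that a number is shared. MEP and GMP libraries of 1 title prefix did so in Idh2 R140Q (0.510) and wild type cells (0.361) but not in the knockout (-0.0397). With the replicate block, 1050, 976 and 18 windows were called, and 0 for MEP against GMP in Idh2 R140Q and in knockout cells, where libraries of 1 title prefix formed the block. Under it the calls of Zbtb12, Fbxo22 and Tmem82 for double mutant against Idh2 R140Q MEP were lost (adjusted p = 0.0783, 0.150 and 0.0656), as were those of Zbtb12, Shroom1, Fbxo22 and 1700023E05Rik for Idh2 R140Q against knockout (adjusted p = 0.0670, 0.112, 0.0541 and 0.156). The cause of the other changes was not tested. Leaving out each wild type library in turn, an alternative chosen after seeing the data, gave 11255 to 11287 windows. With 3 to 5 CpGs and under 100 reads in some libraries, single windows such as Dolpp1 are limited by depth.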

Other observations

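Further promoters in the upper range of double mutant cells came from many gene families. Kif21a, which encodes a kinesin motor, was at 64.4%, 68.1% and 51.8% in double mutant cells, 1.17% and 0% in Idh2 R140Q MEP, and 1.05% and 0% in Dnmt3a knockout MEP. Htr4, a serotonin receptor gene, was at 60.3%, 65.7% and 53.8% in double mutant cells, 6.47% and 5.17% in Idh2 R140Q MEP, and 3.61% and 4.90% in Dnmt3a knockout MEP. Odz4, a teneurin gene of neurons, was at 52.2%, 71.0% and 56.3% in double mutant cells, 7.30% and 4.09% in Idh2 R140Q MEP, and 1.64% and 2.56% in Dnmt3a knockout MEP. None of the 3 overlapped between double mutant and single mutant libraries. Dlk1, an imprinted gene of the Notch ligand family, was at 37.8%, 46.1% and 57.8% in double mutant cells, 4.67% and 18.3% in Idh2 R140Q MEP, and 0.446% and 0% in Dnmt3a knockout MEP. Fcgr3, a gene of an IgG receptor of myeloid cells, was at 19.2%, 27.2% and 19.7% over 17 CpGs in double mutant cells, 5.03% and 7.91% in Idh2 R140Q MEP, and 5.41% and 5.89% in Dnmt3a knockout MEP. The Fcgr3 window was called higher than in the knockout (16.4 points) and than in Idh2 R140Q MEP (15.6 points), with all libraries apart.

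The share of windows at 10% or more in double mutant cells lay between 6.71% of 581 windows on chromosome 17 and 16.6% of 421 windows on chromosome 12. It was 7.38% in the fifth of windows with the least GC and 13.9% in the fifth with the most. Promoter windows at 5% or more in wild type, 3367 in number, had a mean level of 56.9% in double mutant cells, 51.8% in Idh2 R140Q MEP, 48.0% in Dnmt3a knockout MEP and 49.7% in wild type MEP. These shares and means are descriptions with no test.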
